A study of Mus musculus with 2 samples.

Results

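The genes described here are 10 of the 32285 listed in the matrix, taken by symbol: the cytoplasmic actins Actb and Actg1, the actin monomer binding proteins Tmsb4x, Tmsb10 and Pfn1, the filament severing protein Cfl1, the tubulins Tuba1b and Tubb5, the tubulin binding protein Stmn1, and the membrane protein Marcksl1. The rule goes by name, though the genes were picked with earlier results of these data known. All 10 were measured, that is, held 10 CPM or more (counts of UMIs, the molecular identifiers that mark single RNA molecules, scaled to a common total) in at least 1 of the conditions compared. The series concerns long-term signalling downstream of antigen in mouse splenic CD8+ T cells labelled wild type, cultured for 30 h. The stimulated cultures met plates coated with a peptide on the class I molecule H-2Db: the peptide named M9C at 0.2, 2 and 20 pmol, and the peptide named L6F at 80 and 20 pmol. The other culture was rested. Each culture carried its own hashtag antibody, live cells were sorted with propidium iodide, and all were pooled in 1 droplet lane. The number of mice and the T cell receptor are not stated in the labels.

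Actin filaments grow from monomers that thymosins hold in reserve and profilin delivers, and cofilin cuts old filaments to return monomers. Microtubules are built of alpha and beta tubulin pairs, which stathmin can sequester. In T cells the actin network shapes the contact with an antigen-bearing surface, microtubules orient secretion toward it, and dividing cells rebuild both for the spindle and the cleavage furrow.

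With 1 culture per condition there was no replicate check, so intervals are 95% exact intervals of counting error only, and no test between cultures is given. After filtering there were 1589, 1703 and 1869 cells at 0.2, 2 and 20 pmol M9C, 2207 and 2477 cells at 80 and 20 pmol L6F, and 755 rested cells. Total UMIs were 11376897 to 16014100 in the stimulated conditions and 918920 in rested cells, and the mean stimulated cell held 5.13 to 5.88 times as many UMIs as the mean rested cell. The filters left out 1.43% to 3.71% of stimulated barcodes and 52.3% of rested ones. The 6 CD8 T cell markers summed to 1999 to 2159 CPM in stimulated cells and 3844 CPM in rested cells, with all 6 above 0 everywhere. Markers of macrophages or monocytes summed to 9.29 to 33.4 CPM in stimulated and 165 CPM in rested cells, and erythroid markers to 2.61 to 41.1 CPM in stimulated and 159 CPM in rested cells. Cd4 was at 0 in rested cells. RNA that leaks from stimulated cells into rested droplets would carry activation genes, and 7 of these stood in rested cells at 0.797% to 3.74% of their mean UMIs per stimulated cell. The same quantity was 5.42% to 45.3% for the 9 genes detected in rested cells.

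The sequences upstream of 4 genes with unlike patterns are shown first. They are Actg1, the actin that was higher in stimulated cells, Tubb5, a tubulin that was higher, Tmsb4x, a thymosin that was lower, and Marcksl1, the gene that differed most with peptide and with M9C dose. The sequences are RefSeq promoter windows of GRCm38.p6, 5′ to 3′ on the gene's strand, trimmed to bases before every annotated exon of the gene. The positions are chr11:120348543-120348745 (minus strand) for Actg1, chr17:35838307-35838551 (minus strand) for Tubb5, chrX:167209316-167209468 (minus strand) for Tmsb4x and chr4:129513331-129513580 (plus strand) for Marcksl1. Capitals mark the CArG box (the motif of serum response factor, a regulator of actin genes), CCAAT or its reverse complement ATTGG, and the GC box (GGGCGG or CCGCCC) on either strand.
Actg1: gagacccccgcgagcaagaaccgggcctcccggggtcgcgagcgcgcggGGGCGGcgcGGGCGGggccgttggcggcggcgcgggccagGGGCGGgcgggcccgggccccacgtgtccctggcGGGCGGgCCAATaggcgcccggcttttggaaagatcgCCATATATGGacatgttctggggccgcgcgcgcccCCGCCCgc
Tubb5: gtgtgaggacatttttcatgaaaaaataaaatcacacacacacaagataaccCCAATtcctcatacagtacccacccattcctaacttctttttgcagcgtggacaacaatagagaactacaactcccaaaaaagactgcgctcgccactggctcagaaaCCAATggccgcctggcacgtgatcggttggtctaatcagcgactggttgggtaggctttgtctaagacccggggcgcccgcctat
Tmsb4x: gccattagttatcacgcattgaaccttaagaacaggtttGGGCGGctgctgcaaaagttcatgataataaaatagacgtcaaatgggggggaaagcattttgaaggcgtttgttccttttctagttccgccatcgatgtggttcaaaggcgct
Marcksl1: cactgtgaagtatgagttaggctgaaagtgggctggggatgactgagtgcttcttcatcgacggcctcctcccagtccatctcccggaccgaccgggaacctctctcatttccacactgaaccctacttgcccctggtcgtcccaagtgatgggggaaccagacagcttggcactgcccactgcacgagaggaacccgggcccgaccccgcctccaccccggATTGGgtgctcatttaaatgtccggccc

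Of the 8 genes in the RefSeq promoter table, Actg1 alone had a CArG box in the 250 bases before its start, 90 bases upstream. The table did not hold Actb or Stmn1. Among 32851 promoter windows of 250 bases, 1.47% held a CArG box, 33.8% CCAAT and 32.7% a GC box, each searched on both strands. Actg1 also held 1 CCAAT and 5 GC boxes, Tubb5 held 2 CCAAT, Marcksl1 held 1 CCAAT and Tmsb4x held 1 GC box. A match says only that the letters are there.

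Stimulated cells differed from rested cells in the proportions of the 10 genes, and little in the share of all UMIs these took together. That share was 2.17% to 2.47% in stimulated cells and 2.60% in rested cells. Actb weighs heavily in it, with 10629 of the 23909 UMIs in rested cells and 106952 of 247193 at 0.2 pmol M9C. Tuba1b, Tubb5, Stmn1 and Marcksl1 were at least 2-fold higher in CPM in each of the 5 stimulated conditions than in rested cells. Tmsb4x was at least 2-fold lower in CPM in each, and Tmsb10 at the 3 doses of M9C, though both were higher as UMIs per cell. So 4 genes were higher in every comparison, and 2 were lower with M9C and 1 with L6F. Among cells with 1000 genes or more, of which 47 were rested, 0 or 1 of the 10 were past 2-fold higher and 0 lower. Of all genes measured, 16.5%, 16.7% and 16.9% were at least 2-fold higher at 0.2, 2 and 20 pmol M9C than in rested cells, and 13.5% and 14.3% at 80 and 20 pmol L6F. The shares lower were 16.3%, 16.4% and 16% for M9C and 13.3% and 14% for L6F. The median log2 CPM ratio of the 10 genes was 0.58 to 0.63, against 0.07 to 0.10 for all genes measured. The 5 comparisons share 1 rested culture, so they are not separate observations of it.

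**Figure D1:**
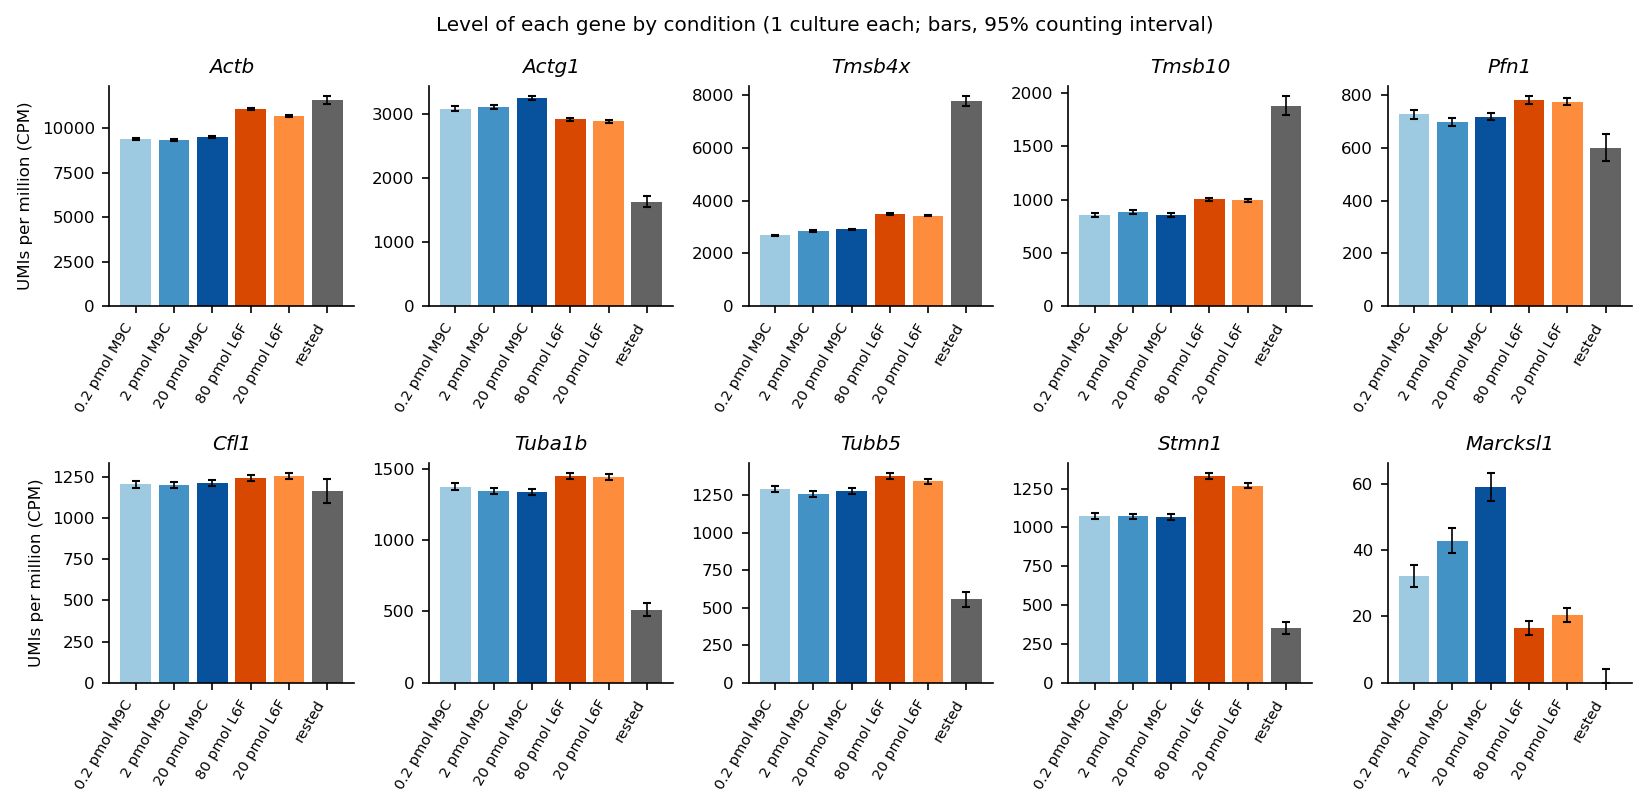
CPM of each of the 10 genes (vertical axes from 0, each with its own scale) in the 5 stimulated conditions and in rested cells; bars are 1 culture each, with 95% counting intervals. Tuba1b, Tubb5, Stmn1 and Marcksl1 stand above rested in every stimulated condition, Tmsb4x and Tmsb10 stand below it on this scale but not as UMIs per cell, and Marcksl1 climbs with M9C dose to 59.0 CPM.

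The actins differed in direction. Actb (chromosome 5, 142903115 to 142906754 of GRCm38), the beta actin that most cells use in bulk, held 9401, 9358 and 9495 CPM at 0.2, 2 and 20 pmol M9C, 11098 and 10697 CPM at 80 and 20 pmol L6F, and 11567 CPM in rested cells. It was thus 1.22-fold to 1.24-fold lower with M9C than in rested cells, and 1.04-fold and 1.08-fold lower at 80 and 20 pmol L6F. At 80 pmol L6F the direction depended on the processing. The log2 ratio of Actb there was 0.03 with median-of-ratios scaling, 0.04 among cells with 1000 genes or more and 0.0004 as means over cells. As UMIs per cell Actb was higher in every stimulated condition. Actg1 (chromosome 11, 120345690 to 120348542), the gamma actin that differs from beta actin by a few residues, held 3087, 3116 and 3243 CPM with M9C, low dose to high, 2917 and 2887 CPM at 80 and 20 pmol L6F, and 1632 CPM in rested cells. Its ratio to rested cells reached 1.99 (interval 1.89 to 2.09) at 20 pmol M9C and was 1.77 at 20 pmol L6F, so it came close to the 2-fold threshold without passing it. In CPM every stimulated culture lay below the 1 rested culture for Actb, unlike per cell, and above it for Actg1. How many of all genes keep to 1 side of rested in this way was not counted.

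Actg1 was therefore a larger part of the actin UMIs after stimulation, a share that no scaling of libraries alters. It was 24.72%, 24.98% and 25.46% of Actb and Actg1 UMIs at 0.2, 2 and 20 pmol M9C, 20.8% and 21.3% at 80 and 20 pmol L6F, and 12.4% (interval 11.8% to 13.0%) in rested cells. The share was higher in every M9C culture than in either L6F culture. With no replicate cultures, this cannot be told apart from a difference between cultures. How many other gene pairs separate the peptides in this way was not counted. At 20 pmol the share was 25.5% (25.2% to 25.7%) with M9C and 21.3% (21.1% to 21.4%) with L6F. The coding sequences of the actins are near-identical, so reads that fit both could move counts between them, and how such reads were counted is not stated in the labels.

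The thymosins were lower in CPM, though not per cell, in stimulated cells. Tmsb4x (chromosome X, 167207093 to 167209315), thymosin beta 4, is the main store of unpolymerised actin in lymphocytes. It held 2679.9, 2859 and 2911 CPM at 0.2, 2 and 20 pmol M9C, 3491 and 3434 CPM at 80 and 20 pmol L6F, and 7763 CPM in rested cells. It was lower by 2.90-fold at 0.2 pmol and 2.67-fold at 20 pmol M9C, and 2.22-fold and 2.26-fold at 80 and 20 pmol L6F. Every stimulated value lay far below the rested one, and the M9C values lay below the L6F values.

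Tmsb10 (chromosome 6, 72957347 to 72958748), its close relative with the same role, held 855, 884 and 856 CPM at 0.2, 2 and 20 pmol M9C, 1003 and 995 CPM at 80 and 20 pmol L6F, and 1878 CPM in rested cells. It was 2.12-fold to 2.20-fold lower with M9C than in rested cells, and 1.87-fold and 1.89-fold lower at 80 and 20 pmol L6F, just short of 2-fold. Set against actin, thymosin UMIs numbered 28.3, 30.0 and 29.6 per 100 actin UMIs at 0.2, 2 and 20 pmol M9C, 32.1 and 32.6 at 80 and 20 pmol L6F, and 73.0 (interval 71.1 to 75.1) in rested cells. This ratio was chosen after the values were seen. It separated rested from stimulated cells more widely than either peptide or dose separated stimulated cells.

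Profilin and cofilin differed little. Pfn1 (chromosome 11, 70651850 to 70654644), which hands monomers to growing filament ends, held 727, 699.5 and 718 CPM at 0.2, 2 and 20 pmol M9C, 779.8 and 775 CPM at 80 and 20 pmol L6F, and 599.6 CPM in rested cells, or 1.17 to 1.30 times rested. Cfl1 (chromosome 19, 5490455 to 5495201), cofilin 1, held 1203, 1199 and 1211 CPM with M9C, low dose to high, 1242 and 1255 CPM at 80 and 20 pmol L6F, and 1161 CPM in rested cells. For Cfl1 the ratio to rested was 1.03 to 1.08, and at each M9C dose its interval included 1 (0.970 to 1.10 at 2 pmol). With mitochondrial and ribosomal protein genes left out of the total, Cfl1 stood below rested instead, at log2 ratios of -0.14, -0.13 and -0.13 at 0.2, 2 and 20 pmol M9C and -0.07 and -0.06 at 80 and 20 pmol L6F. The annotation places Snx32 on the opposite strand over Cfl1, but that gene reached no more than 3.26 CPM.

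The tubulins were higher in stimulated cells. Tuba1b (chromosome 15, 98931425 to 98934565), an alpha tubulin, held 1374, 1339.6 and 1334 CPM at 0.2, 2 and 20 pmol M9C, 1449 and 1441 CPM at 80 and 20 pmol L6F, and 511 CPM in rested cells. Its ratio to rested cells was 2.61 (2.38 to 2.86) at 20 pmol M9C and 2.83 (2.58 to 3.11) at 80 pmol L6F. Tubb5 (chromosome 17, 35833921 to 35838306), a beta tubulin, held 1294, 1256 and 1279 CPM with M9C, low dose to high, 1379 and 1343 CPM at 80 and 20 pmol L6F, and 555 CPM in rested cells, which is 2.26 to 2.48 times rested. All stimulated cultures exceeded the rested one more than 2-fold for both genes.

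The mix of alpha isotypes differed more than that of beta isotypes. Tuba1b was 66.9% to 67.4% of alpha tubulin UMIs in stimulated cells and 53.7% (interval 50.3% to 57.1%) in rested cells. Tubb5 was 51.9% to 53.5% of beta tubulin UMIs in stimulated cells and 50.1% (47.0% to 53.2%) in rested cells, and Tubb4b, the other abundant beta tubulin, was 45.5% to 47.1% in stimulated cells and 49.1% in rested cells. The coding sequences of tubulin isotypes are close, and reads they share make these shares uncertain.

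Stmn1 (chromosome 4, 134468320 to 134473843), stathmin 1, destabilises microtubules and is typical of dividing cells. It held 1075, 1070.1 and 1068 CPM at 0.2, 2 and 20 pmol M9C, 1331 and 1268 CPM at 80 and 20 pmol L6F, and 350.4 CPM in rested cells. The ratio to rested was 3.05 to 3.07 with M9C and 3.80 (3.40 to 4.25) and 3.62 (3.24 to 4.05) at 80 and 20 pmol L6F. With each cell thinned to 1000 UMIs, 63.1% to 71.9% of stimulated cells and 12.9% of 464 rested cells (interval 10.0% to 16.3%) had a Stmn1 UMI. Unthinned, these shares were 97.4% to 98.9% of stimulated cells and 14.6% of rested cells.

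The rested Stmn1 UMIs sat in few cells. In 13 of the 755 rested cells, those above 3 times the median depth, lay 7.04% of all rested UMIs but 33.2% of the Stmn1, 21.5% of the Tuba1b and 16.9% of the Tubb5 UMIs. The variance of thinned Stmn1 UMIs over their mean was 2.81 in rested cells and 1.06 to 1.24 in stimulated cells. So the variance was close to the mean in stimulated cells and well above it in rested cells.

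A split of the rested cells by genes detected, made after the values were seen, gave the same picture. The 47 rested cells with 1000 genes or more held 1652 CPM of Stmn1 (1449 to 1874), above every stimulated condition, against 106 CPM (84.3 to 132) in the other 708 rested cells. Tuba1b stood at 1197 CPM in the 47 and 383 CPM in the 708, and Tubb5 at 1053 CPM in the 47 and 461 CPM in the 708. Tmsb4x was at 5265 CPM in the 47 and 8233 CPM in the 708, and Actg1 at 1879 CPM in the 47 and 1586 CPM in the 708, so these kept to the rested side of all stimulated conditions. The G2 and M phase genes summed to 3689 CPM in the 47 cells and 206 CPM in the 708. Macrophage or monocyte markers summed to 998 CPM in the 47 (5 cells held them) and 9.05 CPM in the 708, and erythroid markers to 1005 CPM in the 47 and 0 CPM in the 708. CD8 T cell markers were found in 78.7% of the 47 cells and 97.6% of the 708. The part of these other cells in the result was not tested. Among cells with a Cd8a or Cd8b1 UMI, 579 of them rested, the counts stayed at 4 genes higher in each comparison, with 2 lower for M9C and 1 for L6F.

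**Figure D2:**
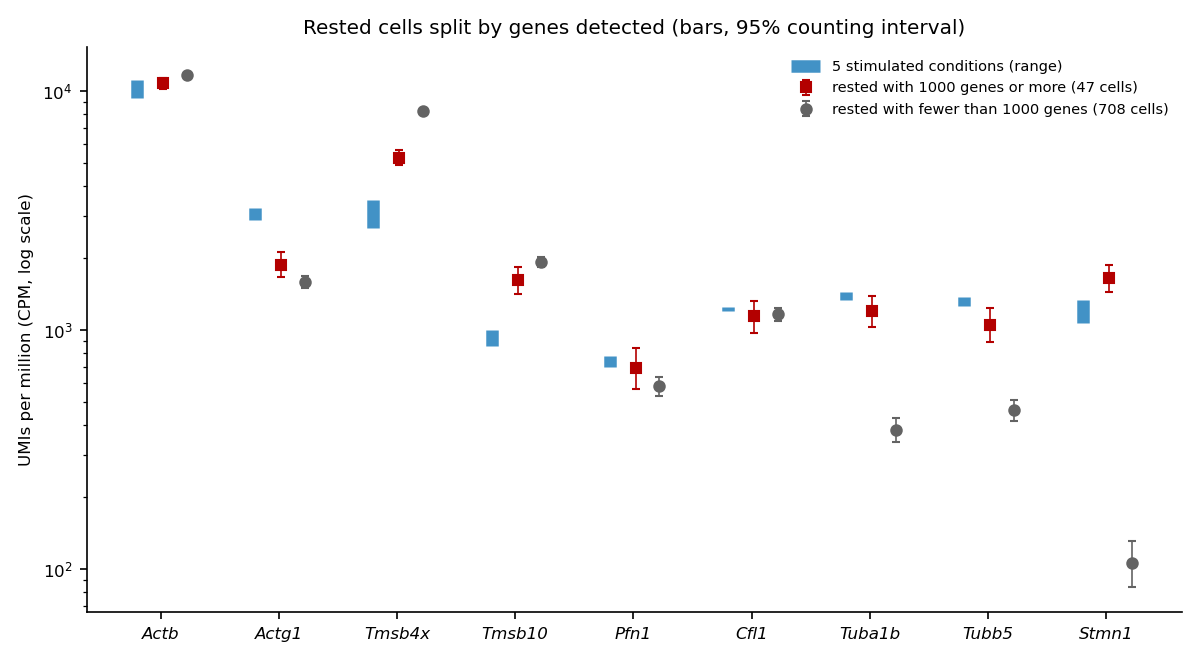
CPM on a log axis for 9 genes: the range over the 5 stimulated conditions (blue bar), the 47 rested cells with 1000 genes or more (squares) and the 708 with fewer (circles), with 95% counting intervals. The squares of Stmn1, Tuba1b and Tubb5 lie near or above the blue bars and far from the circles, while those of Actg1, Tmsb4x and Tmsb10 lie nearer the circles.

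Scale decides what lower means. Counted as UMIs per cell, all 9 genes detected in rested cells were higher in every stimulated condition, and the median of all genes measured was higher by 2.43 to 2.65 on that log2 scale. Tmsb4x, lower in CPM, had 19.2, 20.1 and 20.1 UMIs per cell at 0.2, 2 and 20 pmol M9C, 21.8 and 22.2 at 80 and 20 pmol L6F, and 9.45 in rested cells. Per cell it was 2.03 to 2.35 times rested, and Tmsb10 2.59 to 2.81 times, both less than the whole transcriptome. Actb (4.66 to 4.92 times) and Cfl1 (5.49 to 6.10 times) kept near the overall gain. Actg1 (9.17 to 11.3 times), Tubb5 (12.8 to 13.7 times), Tuba1b (14.5 to 15.8 times) and Stmn1 (17.3 to 19.5 times) outran it. How much RNA a cell held and how much of it was captured cannot be told apart here.

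**Figure D3:**
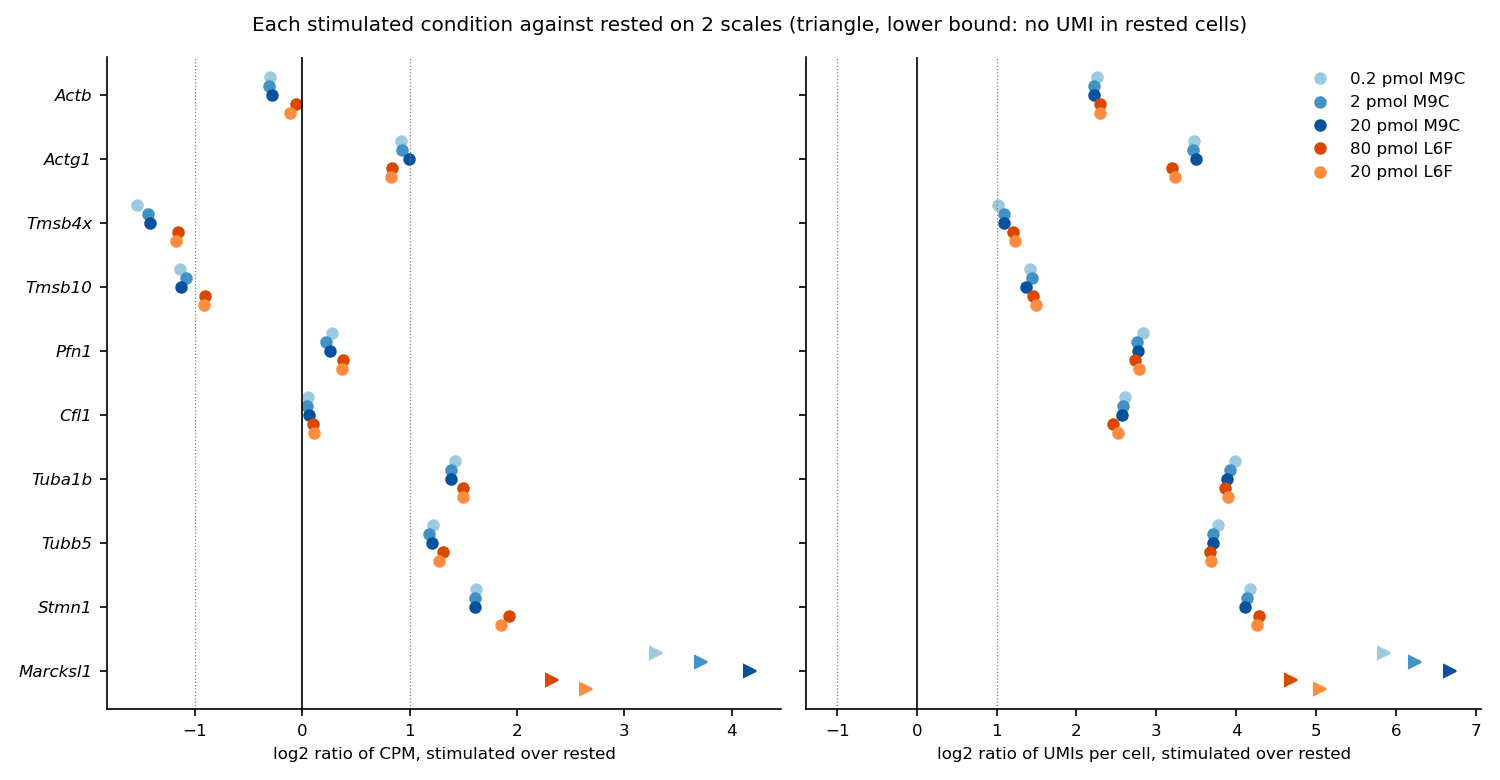
Log2 ratio of each stimulated condition over rested for every gene, as CPM (left) and as UMIs per cell (right); dotted lines mark 2-fold, and triangles are lower bounds. The right panel adds a constant per condition to the left, so the order of the genes is the same by construction. All lie above 0 on the right, where the thymosins are lowest.

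Marcksl1 (chromosome 4, 129513581 to 129515985) encodes a relative of MARCKS, a protein that binds the plasma membrane and actin and responds to protein kinase C and calcium signals. It was the one gene of the 10 that separated dose and peptide by a wide margin. It held 32.1, 42.8 and 59.0 CPM at 0.2, 2 and 20 pmol M9C and 16.4 and 20.4 CPM at 80 and 20 pmol L6F, with no UMI in 755 rested cells. Against the floor of 3 counts in the rested total its ratio was 9.83, 13.1 and 18.1 with M9C, low dose to high, and 5.02 and 6.24 at 80 and 20 pmol L6F. The exact lower bounds were 7.95, 10.6 and 14.7 with M9C, low dose to high, and 4.05 and 5.04 at 80 and 20 pmol L6F. Every pair of neighbours in this order differed beyond counting error. The ratio of 20 to 0.2 pmol M9C was 1.84 (1.62 to 2.09), so the dose step did not reach 2-fold. The lowest dose of M9C was 1.58 (1.35 to 1.84) times 20 pmol L6F, and 80 pmol L6F was 1.24-fold (1.04 to 1.48) lower than 20 pmol L6F.

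At the matched dose of 20 pmol, M9C cells held 2.90 (2.54 to 3.31) times as much Marcksl1 as L6F cells. It was the 1 gene of the 10 at least 2-fold higher with M9C, where 0.884% of all genes measured were, and 0 were at least 2-fold lower, against 0.756% of all genes. Between 20 and 0.2 pmol M9C, 0 of the 10 were past 2-fold in either direction, where 0.272% of all genes were higher and 0.143% lower. Between 80 and 20 pmol L6F, 0 of the 10 were, and 0% of all genes in each direction.

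Marcksl1 was found in few cells. At 1000 UMIs per cell, 3.34%, 4.42% and 6.07% of cells had a UMI of it at 0.2, 2 and 20 pmol M9C, 1.91% and 2.19% at 80 and 20 pmol L6F, and 0 of 464 rested cells, which allows a share of up to 0.647% (3 counts of 464). A positive cell mostly held a single UMI at this depth, so the share cannot tell more positive cells from more RNA in each. Unthinned, 19.9%, 23.4% and 28.9% of cells had a UMI with M9C, low dose to high, and 9.24% and 11.3% at 80 and 20 pmol L6F. At 3000 UMIs per cell, M9C cells with a Marcksl1 UMI had 2.02 to 2.16 times the Xcl1 UMIs (a chemokine of activated CD8 T cells) and 1.17 to 1.48 times the Tnfrsf4 UMIs (the receptor OX40) of M9C cells without. Of the other activation genes examined, the chemokines Ccl3 and Ccl4 stood at 1.06 to 1.65 times, and Il2ra, Lag3 and Gzmb at 0.667 to 1.11 times, on either side of 1. The other 9 cytoskeleton genes stood at 0.856 to 1.07 times. These ratios compare cells within 1 culture at a time and carry no test.

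**Figure D4:**
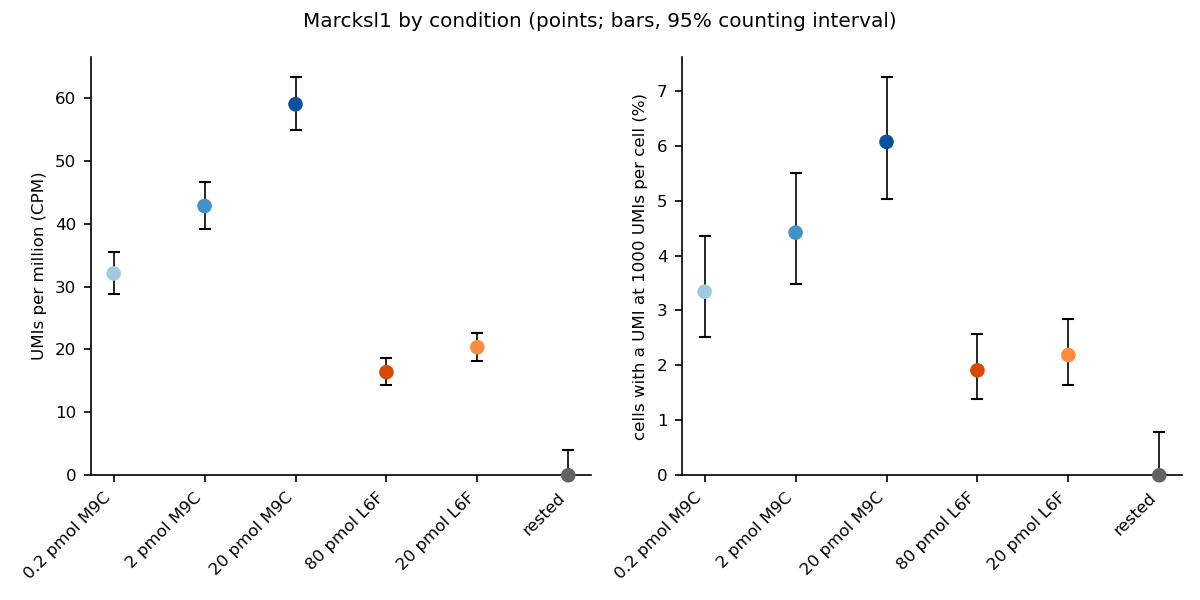
Marcksl1 by condition, as CPM (left) and as the share of cells with a UMI after thinning every cell to 1000 UMIs (right); points are single cultures with 95% counting intervals. Both panels climb with M9C dose to 59.0 CPM and 6.07%, lie lower for both L6F doses and are at 0 for rested cells.

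The peptides differed less in the other genes, and in both directions. At 20 pmol, M9C cells held 1.12 (1.11 to 1.14) times the Actg1 CPM of L6F cells. For the remaining 8 genes the ratio was below 1, in CPM from 0.842 (0.824 to 0.861) for Stmn1, 0.848 for Tmsb4x, 0.861 for Tmsb10 and 0.888 for Actb to 0.925 for Tuba1b, 0.928 for Pfn1, 0.953 for Tubb5 and 0.965 (0.945 to 0.985) for Cfl1. Each interval excluded 1, and none of these differences reached 1.5-fold. As UMIs per cell, Tubb5 and Cfl1 were slightly higher with M9C than with L6F (log2 ratios 0.03 and 0.04). With no second culture, a difference of this size between peptides cannot be told apart from one between cultures.

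Within a peptide the order of doses was resolved beyond counting error for some genes and not for others. Between 2 and 20 pmol M9C, the intervals of Pfn1, Tuba1b, Tubb5 and Stmn1 included 1, and so did those between 80 and 20 pmol L6F for Actg1, Tmsb10, Pfn1, Cfl1 and Tuba1b. Between 80 and 20 pmol L6F those of Actb, Tmsb4x, Tubb5, Stmn1 and Marcksl1 excluded 1. No Cfl1 ratio was taken between 2 and 20 pmol M9C, where its CPM intervals overlapped (1179 to 1219 at 2 pmol and 1192 to 1230 at 20 pmol). Tmsb4x was 1.09 (1.07 to 1.10) times and Actg1 1.05 (1.04 to 1.07) times as high at 20 as at 0.2 pmol M9C. The other genes but Marcksl1 lay between 0.971 and 1.01 in that comparison, with intervals that excluded 1 for Actb and Tuba1b. From the lowest to the highest stimulated condition, CPM spanned 1.05-fold for Cfl1, 1.30-fold for Tmsb4x and 3.60-fold for Marcksl1.

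Within the stimulated cultures the genes varied little between cells with more and with fewer UMIs of cell cycle genes. Of cells thinned to 3000 UMIs, 88.4% to 91.9% per condition held 3 or more G2 and M phase UMIs. The split therefore compares cells that mostly held such UMIs, and it cannot show how the genes differ in cells without them. At 3000 UMIs per cell, cells at or above the upper quartile of G2 and M phase UMIs were set against cells at or below the lower quartile, a split chosen after seeing that 17 cells at most in a condition had none. Tubb5 was 1.10 to 1.19 times as high in the upper group and Stmn1 1.01 to 1.14 times, each above 1 in 5 of 5 conditions. Cfl1 was 1.01 to 1.14 times and Tuba1b 1.03 to 1.09 times as high, also in 5 of 5, and Actg1 and Tmsb10 were below 1 in all 5, at 0.918 to 0.988 and 0.852 to 0.988. By S phase UMIs, no gene but Marcksl1 passed 1.10 in any condition, and Marcksl1, with few UMIs, ran from 0.657 to 1.70. From cell to cell the correlations of thinned UMIs were low. The largest median Pearson r over the 5 conditions was 0.18, for Tmsb4x with Tmsb10, too weak in counts this sparse to be a finding. The variance of Tuba1b UMIs was 1.02 to 1.16 times their mean there, near counting error alone. A low r in such counts does not show that levels were unrelated.

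The genes whose level over the 6 conditions was most like each of the 10, by Euclidean distance of centred log2 CPM among 2094 genes at 50 CPM or more throughout, came from many functions. Nearest to Stmn1 were Mki67 (a proliferation marker, distance 0.10), Top2a and Phgdh. Nearest to Tuba1b was Lig1, a DNA ligase of replication (0.044), and nearest to Tubb5 was Smc2, a condensin subunit (0.072). Actb lay nearest to Arpc1b, a subunit of the actin nucleating Arp2/3 complex (0.044), and Actg1 to Mydgf (0.038). Tmsb4x lay nearest to Pnrc1 (0.095) and Tmsb10 to Rapgef6 (0.068), with B2m next. Pfn1 lay nearest to Psip1 and Cfl1 to the elongation factor Eef2. Marcksl1 was below 50 CPM in 5 conditions and was given no neighbours.

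Of the rest of the cytoskeleton, more genes were lower than higher in CPM, though not as UMIs per cell. The share lower was near that over all genes measured, while the share higher was below it. Of 146 other genes on 10 lists in the matrix, 116 were measured at 20 pmol M9C or in rested cells: 8 were at least 2-fold higher at 20 pmol M9C, 19 lower and 89 neither, with a median log2 CPM ratio of -0.07. Of the 19, 4 reached 10 CPM in rested cells alone, as did 1 of the 8 at 20 pmol M9C alone, so these had to differ to be measured. With a minimum of 50 CPM, 12 were lower, and among cells with 1000 genes or more 2 were higher. Among all genes measured in that comparison, 16.9% were higher and 16% lower. In the other comparisons with rested cells 7 or 8 were higher and 13 to 18 lower, of 114 to 116 measured. Over all genes measured there, 13.5% to 16.7% were higher and 13.3% to 16.4% lower. Between doses and between peptides, 0 passed 2-fold, where 0% to 0.884% of all genes measured did in each direction.

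Over all genes measured at 20 pmol M9C against rested, 16.9% were higher and 16% lower, and no list was tested against these shares. Of 6 measured tubulin isotypes other than Tuba1b and Tubb5, 3 were higher and 0 lower, with a median log2 ratio of 0.97. Of the 3, 1 reached 10 CPM at 20 pmol M9C alone, so it had to differ to be measured. Tubb4b held 1161 CPM at 20 pmol M9C and 544 CPM in rested cells, a ratio of 2.13 (1.95 to 2.34), and the centrosomal gamma tubulin Tubg1 had a ratio of 2.53 (1.78 to 3.71). Of 19 genes of microtubule binding and motor proteins, 4 were higher and 0 lower. Dynll2, a dynein light chain, held 399 CPM at 20 pmol M9C and 74.0 CPM in rested cells, 5.39 (4.25 to 6.95) times as much, and the dynein regulator Nudc 2.58 times. Of 9 tubulin folding and modification genes, 0 passed 2-fold in either direction, and the largest difference was in the chaperone Tbca, 1.70-fold lower. The spindle protein Tacc3 stood at 3.32, 3.20 and 3.14 times rested at 0.2, 2 and 20 pmol M9C, and at 3.68 (2.25 to 6.46) and 3.52 times at 80 and 20 pmol L6F.

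The same shares over all genes measured, 16.9% higher and 16% lower, stand beside the lists that follow, which were not tested against them either. Of 17 filament crosslinkers and binders, 7 were lower, with the crosslinker filamin A (Flna) 4.02-fold and plectin (Plec) 3.92-fold lower. Of 16 genes of monomer binding, severing and turnover, 5 were lower: Gmfg, which takes apart Arp2/3 branches, was 6.66-fold lower and the cofilin phosphatase Ssh2 was 2.95-fold lower. The myosin light chain Myl12b was 4.31-fold lower, one of 2 lower among 8 non-muscle myosins (Myl6 was 1.82-fold lower), and the adducins Add1 and Add3 were 2.60-fold and 2.27-fold lower among the 3 of 12 lower genes of formins and capping proteins. Of 5 genes for serum response factor and its cofactors, 2 were lower. The lower counts for turnover, myosins and these cofactors include genes that reached 10 CPM in rested cells alone, which had to differ to be measured. Of 18 genes of the Arp2/3 complex and its activators, 1 was higher (Arpc1a, 2.01-fold) and 0 lower, and the subunit Arpc5l stood at 1.73 times rested. Of 6 membrane to cortex linkers 0 passed 2-fold, though moesin (Msn) was 1.56-fold lower and radixin (Rdx) 1.73 times as high.

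At 20 pmol, Gmfg and Evl, an actin filament elongation factor, also stood lower in M9C cells than in L6F cells. Gmfg held 37.1 CPM with M9C and 61.1 CPM with L6F (ratio 0.607), and Evl 141 CPM with M9C and 203 CPM with L6F (0.691). The actin depolymerising factor Dstn was 1.39 (1.26 to 1.54) times and the tropomyosin Tpm4 1.29 (1.22 to 1.36) times as high with M9C. None reached 2-fold. Between doses the named genes differed less: at 20 over 0.2 pmol M9C the ratio was 1.18 for Tpm1, 1.11 for Dynll2, 0.857 for Diaph1 and 0.851 for Clip1, and at 80 over 20 pmol L6F it was 1.24 for Capg, 1.14 for Myh9, 0.942 for Nudc and 0.929 for Wasf2.

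**Figure D5:**
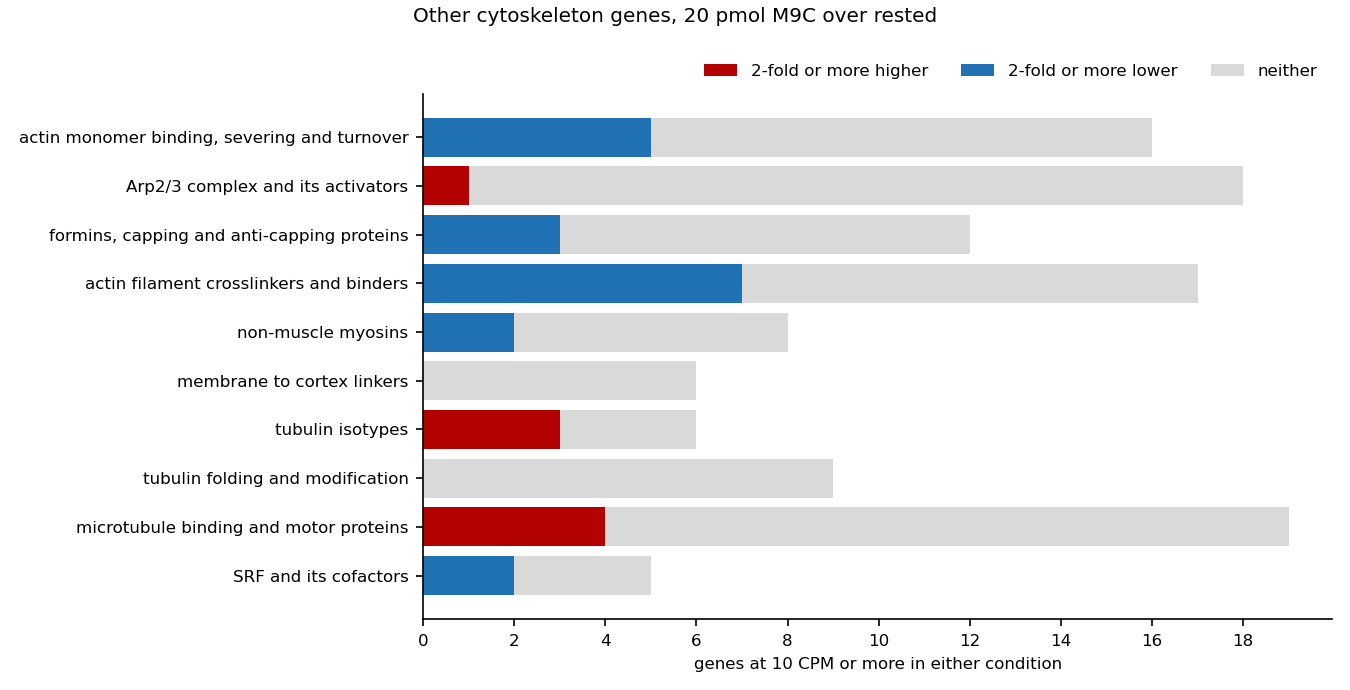
Number of measured genes (horizontal axis) on each of 10 lists of other cytoskeleton genes that were at least 2-fold higher (red), at least 2-fold lower (blue) or neither (grey) at 20 pmol M9C over rested cells. Red is found in the tubulin, microtubule and Arp2/3 lists, and blue is widest for the crosslinkers, with 7 of 17. Over all genes measured, 16.9% were higher and 16% lower.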

How the data were processed

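Gene counts and hashtag counts of 13439 barcodes were deposited as whole UMI counts, made by the authors. The submitters' processing notes name bcl2fastq, Cell Ranger 6.0.1 and the build GRCm38 (mm10). The annotation counted on is not given in the sources used here, nor is the rule that told cells from empty droplets. No replicates were pooled by the values: each condition was 1 culture of 1 lane, and the barcodes were all different.

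A barcode was given a condition where its top hashtag had 20 counts or more and 80% or more of its hashtag counts (11671 barcodes, 1768 left without), which leaves out most mixed droplets. Of cell pairs, 18.2% join cells of 1 condition and are not seen this way, and no doublet caller that works on gene counts was run. The hashtag caller HTODemux, used as an alternative, called 2283 barcodes doublets. It called singlets 1602 of the 1869 cells kept at 20 pmol M9C and 746 of the 755 rested cells. Kept were 10600 cells with 500 genes or more whose mitochondrial UMIs were 10% or less. Per condition the UMIs were then added up and scaled to CPM. Ratios have exact Clopper-Pearson intervals, CPM exact Poisson intervals and shares exact binomial intervals, all at 95% and covering counting error only. A gene counted as higher or lower past 2-fold with an interval that excludes 1, and a gene without any UMI took a floor of 3 counts. The 8 comparisons were each stimulated culture against rested, 20 against 0.2 pmol M9C, 80 against 20 pmol L6F, and M9C against L6F at 20 pmol. The ratio script was tested on simulated counts.

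All 10 genes are named throughout. Of other genes, the 2 of each list with the largest ratio by the bound nearest 0 at 20 pmol M9C against rested are named, and the 2 highest and 2 lowest in the other comparisons, at 50 CPM or more in either condition. The members and lists were chosen with earlier results of these data known. Some listed genes are not reported here. Of 32285 gene IDs, 32158 matched the GENCODE vM21 annotation used for positions. Alternatives were HTODemux in Seurat 5.3.0 (R 4.3.3) at quantile 0.99, other filters, scalings and thresholds. Python 3.11.15, numpy 2.4.6, scipy 1.17.1 and pandas 2.3.3 were used.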

Additional observations from a re-analysis of the deposited data

How the results depend on the processing

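No paired analysis was possible because each condition was 1 culture and the labels give no replicate numbers. A lone culture, the shallow rested cells and the 52.3% of rested barcodes left out limit every comparison with rested cells, and p-values are not possible.

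Counts of the 10 genes against rested cells (4 higher in all 5 comparisons; 2 lower for M9C, 1 for L6F) did not move by over 1.5 times without a cell filter, without cells above 3 times the median UMIs, with the stricter hashtag rule, as means over cells, or in cells with a Cd8a or Cd8b1 UMI (chosen after seeing the data). At 1000 genes or more, where 47 rested cells remained, 0, 1 and 1 genes were higher at 0.2, 2 and 20 pmol M9C, 0 and 0 for L6F, and 0 lower in all. As UMIs per cell, 10 were higher and 0 lower. HTODemux gave 1 lower in each M9C comparison, and median-of-ratios scaling gave 1 at 2 pmol. Without mitochondrial and ribosomal protein genes, and at 1.5-fold, both L6F comparisons had 2 lower. At 1.5-fold, 1 was higher between M9C doses. The median log2 ratio to rested of all genes measured, 0.07 to 0.10 in CPM, was -0.10 to -0.09 without mitochondrial and ribosomal protein genes and 0.16 to 0.19 with median-of-ratios scaling.

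Besides ratios close to 1 (Cfl1, Tubb5 and Actb at 80 pmol L6F), directions reversed in these cases. At 1000 genes or more, the log2 ratio of Stmn1 to rested was -0.62, -0.62 and -0.63 at 0.2, 2 and 20 pmol M9C and -0.31 and -0.38 at 80 and 20 pmol L6F. Marcksl1 there gave -0.33 and -0.024 at 80 and 20 pmol L6F, since the floor of 3 counts in 47 cells exceeds its level. As UMIs per cell, Tmsb4x gave 1.02, 1.09 and 1.09 with M9C and 1.21 and 1.23 with L6F, and Tmsb10 gave 1.42, 1.44 and 1.37 with M9C and 1.45 and 1.49 with L6F. Actb gave 2.26, 2.23 and 2.22 with M9C and 2.30 at both doses of L6F. The smaller number of rested cells is the alternative's construction, and the cause of the Stmn1 reversal was not tested.

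For the other cytoskeleton genes, listed as 0.2, 2 and 20 pmol M9C, then 80 and 20 pmol L6F against rested, 2, 2, 2, 3 and 2 were higher at 1000 genes or more. As UMIs per cell 103, 104, 107, 107 and 105 were higher and 0, 0, 1, 0 and 1 lower. At 1.5-fold 18, 20, 21, 18 and 16 were higher, and 31, 32 and 32 were lower with M9C and 21 at 80 pmol L6F. The stricter hashtag rule gave 12 higher at 0.2 pmol M9C and 11 at 80 pmol L6F, and a minimum of 50 CPM gave 12 lower at 20 pmol M9C, 7 at 80 and 10 at 20 pmol L6F. At 1.5-fold, 1 was lower between M9C doses, and 1 was higher and 2 lower with M9C than with L6F at 20 pmol. With no filter on low values, 1 was higher between L6F doses and 1 higher and 1 lower between peptides.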
